A study of Mus musculus with 6 samples.

Results

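The Sp and Krüppel-like factor (KLF) genes described here were Sp1, Sp2, Sp3, Sp4, Klf2, Klf4, Klf6, Klf9, Klf10 and Klf13, 10 of 21887 protein-coding genes in the RefSeq table of GRCm38.p6, the assembly also called mm10. They were selected on a list of names drawn up with the peak lists of this study already known, so the counts and folds given for them are a description and carry no test. A peak was given to a gene when its summit, the base of highest signal, lay inside the gene body or within 1 kb of a gene end. By that rule the 10 genes held 10 of 6444 peaks of vehicle-treated cells and 1 of 491 peaks of cells given the drugs.

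The assay was BrITL, in which DNA ends in permeabilised cells are labelled with a biotinylated nucleotide, pulled down and sequenced. All cells were passage-immortalised mouse embryonic fibroblasts (ATR+/-) that expressed Bcl-xL, an inhibitor of cell death, so controls and treated cells alike carried the Atr deficiency and the survival gene. The DMSO group had vehicle for 18 h. The treated group had 18 h of 1 µM ATR-45, which blocks ATR, the kinase that guards stalled forks, together with 0.2 µM aphidicolin, which slows DNA polymerases. Each condition had 2 pull-downs and 1 input, and these were pooled into 1 peak list per condition. No value below has a replicate error, no value exists per sample, and nothing here measures RNA, so the fibroblast label could not be checked against marker genes.

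Sp and KLF proteins share 3 zinc fingers at the carboxyl end and bind GC-rich DNA, the Sp proteins mostly GC boxes and the KLF proteins mostly CACCC boxes, with much overlap. Sp1, Sp3 and Sp4 act at many promoters that lack a TATA box, while KLF proteins are known for switching cell growth, differentiation and stress programmes. Several of the KLF genes, such as Klf2, Klf4, Klf6 and Klf10, are induced within minutes to hours of growth factors, flow or cytokines.

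Since these factors bind GC-rich promoters and many DMSO peaks lay at gene starts, the promoters of the genes themselves are shown for 5 cases. They are Sp1, the gene with a peak in both lists; Sp4, another Sp gene with a peak at its start; Klf6 and Klf9, whose DMSO summits fell inside the stretch printed; and Klf2, the gene of the set without a peak. Each line gives the 250 bases before the RefSeq start on the strand of the gene, 5′ to 3′, in GRCm38.p6, and capitals mark GGGCGG on either strand, the core of the GC box. The windows are chr15:102406066-102406315 on the plus strand (Sp1), chr12:118301441-118301690 on the minus strand (Sp4), chr13:5861239-5861488 on the plus strand (Klf6), chr19:23140976-23141225 on the plus strand (Klf9) and chr8:72318812-72319061 on the plus strand (Klf2).
Sp1: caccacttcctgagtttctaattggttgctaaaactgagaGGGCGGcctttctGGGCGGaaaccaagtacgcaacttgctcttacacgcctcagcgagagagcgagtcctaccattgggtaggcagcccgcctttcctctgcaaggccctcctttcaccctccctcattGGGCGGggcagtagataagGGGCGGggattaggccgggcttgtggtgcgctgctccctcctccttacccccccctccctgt
Sp4: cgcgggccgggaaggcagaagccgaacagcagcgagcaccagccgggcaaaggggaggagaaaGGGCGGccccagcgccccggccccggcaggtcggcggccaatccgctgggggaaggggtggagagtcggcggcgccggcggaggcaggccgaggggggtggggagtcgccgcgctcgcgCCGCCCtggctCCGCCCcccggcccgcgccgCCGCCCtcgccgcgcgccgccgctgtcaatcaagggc
Klf6: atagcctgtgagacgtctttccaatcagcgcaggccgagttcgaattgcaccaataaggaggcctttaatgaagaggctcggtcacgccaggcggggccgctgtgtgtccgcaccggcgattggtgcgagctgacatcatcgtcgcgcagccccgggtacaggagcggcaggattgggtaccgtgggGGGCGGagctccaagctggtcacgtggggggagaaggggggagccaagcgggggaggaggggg
Klf9: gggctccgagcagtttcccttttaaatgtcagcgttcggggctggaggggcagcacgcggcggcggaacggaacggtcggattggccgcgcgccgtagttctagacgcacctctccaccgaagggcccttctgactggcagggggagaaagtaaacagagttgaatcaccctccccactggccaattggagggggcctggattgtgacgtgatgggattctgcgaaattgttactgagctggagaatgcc
Klf2: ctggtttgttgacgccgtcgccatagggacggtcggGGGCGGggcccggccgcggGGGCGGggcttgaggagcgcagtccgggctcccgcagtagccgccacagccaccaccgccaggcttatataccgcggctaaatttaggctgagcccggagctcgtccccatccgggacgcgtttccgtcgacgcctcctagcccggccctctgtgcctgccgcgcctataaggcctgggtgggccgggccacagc

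In DMSO cells 9 of the 10 genes held a summit, against 23.8% of all protein-coding genes counted in the same way. Klf2 held none. Klf6 held 2 and the other genes held 1 each. In treated cells 1 of the 10, Sp1, held a summit, against 1.16% of all protein-coding genes. Because the names were chosen with these lists in view, nothing is read from the distance between either count and its background.

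Sp1 encodes the founding GC-box factor and had the strongest peak of the set. Its DMSO peak ran from 102403496 to 102409009 on chromosome 15, 5514 bp wide, with the summit 589 bp upstream of the start. The authors' fold enrichment, the caller's pull-down signal over its background, was 31.4 there, with −log10 q of 121.6. Of the 6444 DMSO peaks 2 had a higher fold, but by the number of pull-down fragments over the summit the Sp1 peak ranked 97. The treated peak, from 102405250 to 102406469, was 1220 bp wide and lay wholly within the DMSO peak, of which it covered 22.1%. Its summit was 350 bp upstream of the start and 239 bp from the DMSO summit. Its fold of 5.71 and −log10 q of 7.14 placed it at rank 121 of 491 by fold and at rank 23 by width in the treated list. Among the 187 DMSO peaks met by a treated peak, that of Sp1 ranked 3 by fold, and among the 200 treated peaks that met a DMSO peak it ranked 28. Folds are set side by side within a list alone, since each list has its own scaling and background.

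The other glutamine-rich Sp genes each held a DMSO summit and no treated summit. Sp3, whose product competes with Sp1 for GC boxes, had a fold of 23.6 (rank 40 of 6444) over a peak of 5179 bp from 72977140 to 72982318 on chromosome 2. The summit lay 889 bp inside the gene, between its annotated starts, 276 bp upstream of the inner start. It also lay 125 bp inside an end of Sp3os, a non-coding gene that overlaps Sp3. Sp4, best known for its role in neurons, had a fold of 17.3 (rank 450) over 4135 bp on chromosome 12, 118299571 to 118303705, with the summit 329 bp upstream of the start. Sp2, which binds promoters with less dependence on its zinc fingers, had a fold of 17.1 (rank 494) over 4349 bp on chromosome 11, 96975679 to 96980027. This peak lay wholly inside the gene, with the summit 4896 bp from the nearer gene end but 375 bp upstream of an inner start, 1 of the 3 starts listed for Sp2. The 2 other Sp2 starts had no DMSO summit within 1 kb.

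**Figure D1:**
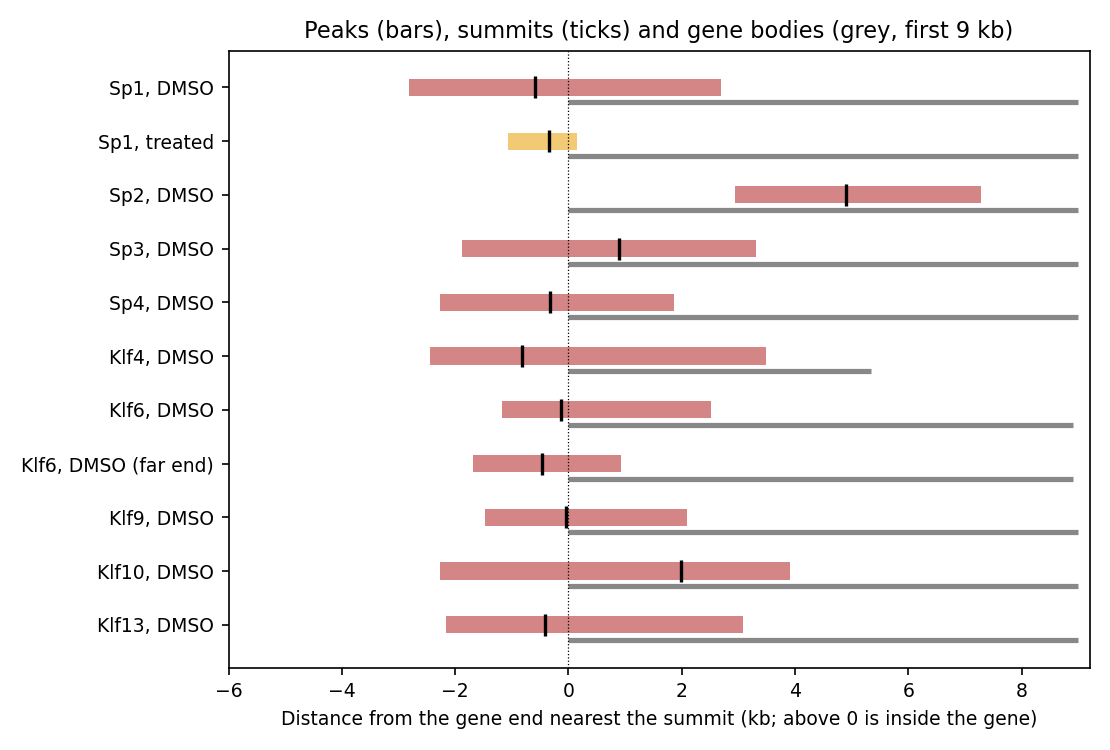
Positions of the peaks of 9 genes, drawn from the gene end nearest the summit (kb on the horizontal axis, above 0 inside the gene); bars span a peak, ticks mark its summit, red is DMSO, orange is treated, and grey lines are gene bodies, drawn for their first 9 kb. All peaks apart from that of Sp2 span a gene end, and the treated Sp1 peak sits inside the DMSO one.

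Among the KLF genes that mainly activate transcription, Klf4 and Klf6 held DMSO summits. Klf4, a pluripotency factor that also restrains the fibroblast cell cycle, had a fold of 18.0 (rank 336) over 5933 bp on chromosome 4, 55528990 to 55534922. The peak covered 3486 bp of the 5339 bp gene, and the summit lay 829 bp upstream of the start, the farthest beyond a gene end in the set, and 594 bp inside an end of the non-coding gene Gm12506. Klf6, a growth-restraining factor induced after injury, had a peak at each end. The peak at the start spanned 5860310 to 5864007 on chromosome 13, with a fold of 13.9 (rank 1376) and its summit 128 bp upstream. The peak at the far end spanned 5869458 to 5872083, with a fold of 9.77 (rank 4492) and its summit 476 bp beyond the gene. It was the only peak of the set below the list's median fold of 10.99 and the only one narrower than the list's median width of 2855 bp, at 2626 bp. Klf2, which controls endothelial and lymphocyte quiescence, had its nearest DMSO summit 78979 bp away and its nearest treated summit 80786 bp away. A gene without a peak in the lists is not shown to lack ends.

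The remaining KLF genes of the set, whose products recruit the SIN3A corepressor, each held 1 DMSO summit. Klf10, a gene induced early by TGF-β, had a fold of 21.7 (rank 94) over 6169 bp on chromosome 15, 38296804 to 38302972, the widest peak of the set. Its summit lay 1985 bp inside the gene and 21 bp outside an end of the non-coding gene Gm35248. Klf13, a regulator of the chemokine Ccl5 in T cells, had a fold of 14.4 (rank 1207) over 5243 bp on chromosome 7, 63935835 to 63941077, with its summit 418 bp upstream of the start. Klf9, a gene induced by glucocorticoid and thyroid hormones, had a fold of 13.9 (rank 1376) over 3556 bp on chromosome 19, 23139754 to 23143309. Its summit was the closest to a start, 35 bp upstream. Where another gene shares the peak, as at Sp3, Klf4 and Klf10, the peak lists cannot tell which gene the ends belong to.

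Across the 10 DMSO peaks the fold ran from 9.77 to 31.4 with a median of 17.2. The median was 10.99 over all 6444 peaks and 11.7 over the 3686 peaks no more than 1 kb from either end of any protein-coding gene. Width ran from 2626 to 6169 bp with a median of 4764 bp, against 2855 bp over all peaks and 2899.5 bp at gene ends. Thus 9 of the 10 peaks lay above the gene-end median on each measure. Sp genes had folds of 17.1 to 31.4 and KLF genes of 9.77 to 21.7, so the ranges of the branches overlapped.

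**Figure D2:**
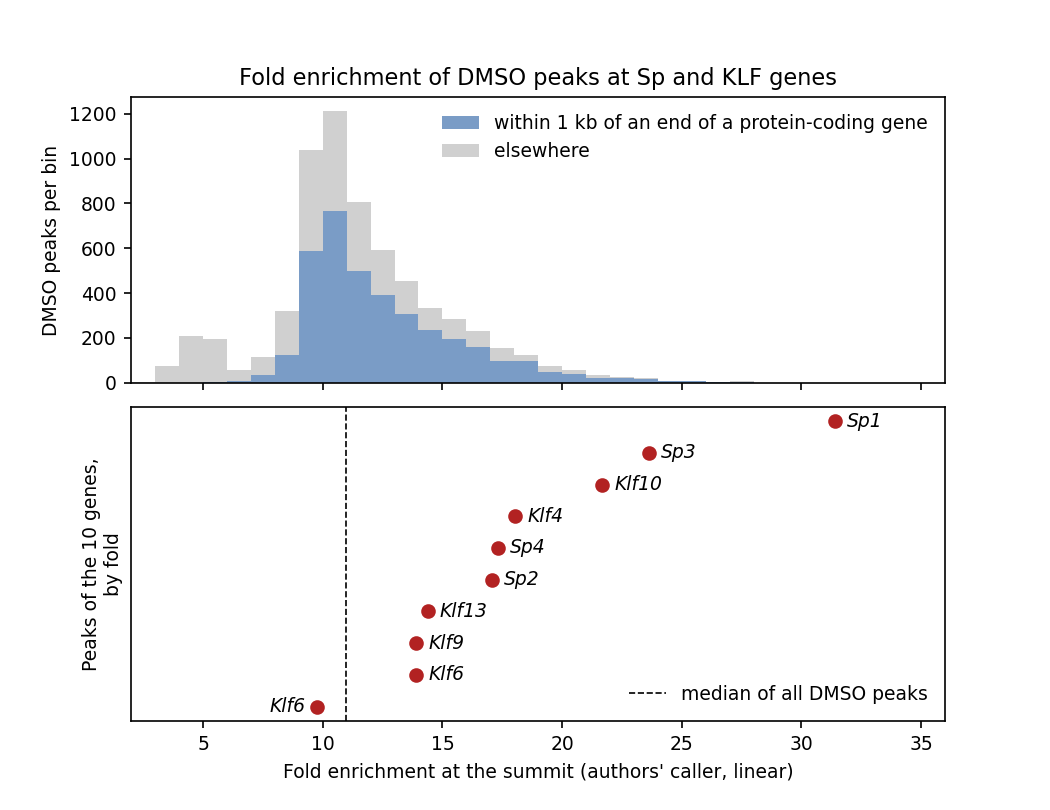
Fold enrichment at the summit (linear, horizontal axis on both panels); the upper panel counts all 6444 DMSO peaks in bins 1 fold unit wide, those at ends of protein-coding genes in blue, and the lower panel shows the 10 peaks of the Sp and KLF genes with the median of the list as a dashed line. The Sp1 peak at 31.4 lies in the far upper tail, and a Klf6 peak at 9.77 lies below the median.

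The caller's fold and p-value together fix how many pull-down fragments covered each summit, both pull-downs taken as a pool. The Sp1 summit had 128 fragments in DMSO cells (exact 95% Poisson interval 106.8 to 152.2). Sp3 had 96 (77.8 to 117.2) and Klf10 had 88 (70.6 to 108.4). Klf4 had 76, Sp4 had 70, Sp2 had 69 and Klf13 had 58. The start of Klf6 and that of Klf9 had 56 each (42.3 to 72.7), and the far end of Klf6 had 39 (27.7 to 53.3). The median over the list was 49. In the DMSO list of 6444 peaks, Sp1 ranked 97 by fragments, Sp3 335 and Klf10 454, each lower than its rank by fold. In this order no neighbouring peaks differed beyond their counting intervals. The interval of Sp1 overlapped those of Sp3 and Klf10 and no other, and the intervals of Sp1 and Sp3 both lay above that of Klf13 (44.04 to 74.98) and those of Klf6 and Klf9. These intervals cover counting error in a pool of 2 pull-downs and no variation between cultures. The caller's background term, put on the scale of these pull-down fragments by dividing by the list's scaling step, was the genome-wide floor of 2.88 at 9 of the 10 summits and 3.04 at Klf4, and the order by fold was the order by fragments. The fold is not the plain ratio of these numbers, since both are multiplied by that step (0.805 in DMSO, 0.439 in treated) and raised by 1 before the division. In treated cells the Sp1 summit had 54 fragments (40.6 to 70.5) over a background of 7.58 on the same scale, where the list's floor was 5.14.

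**Figure D3:**
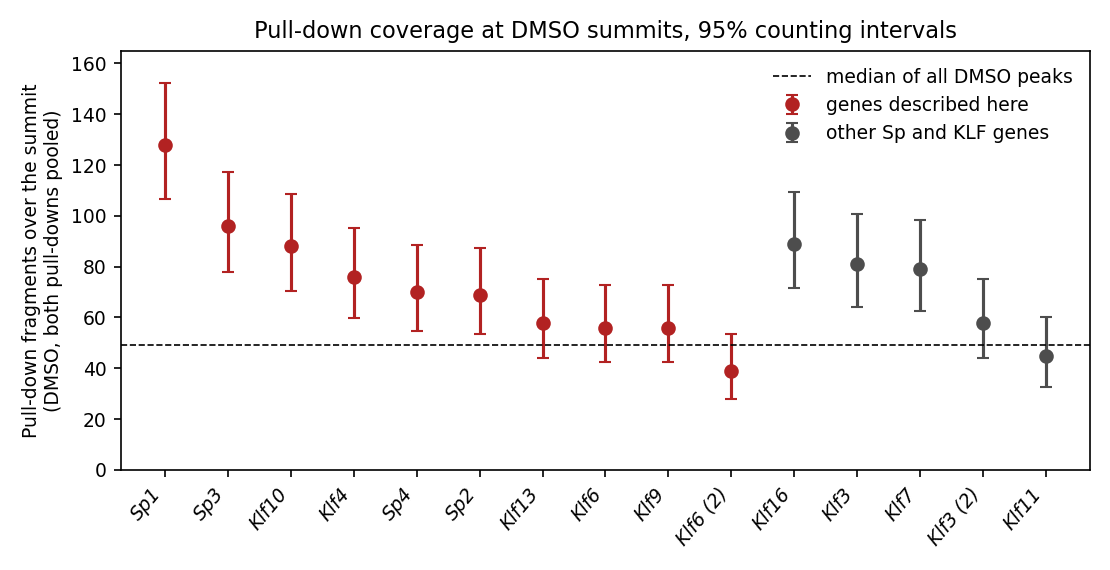
Pull-down fragments over each DMSO summit (vertical axis, both pull-downs pooled) with exact 95% Poisson intervals as bars, for the genes described here in red and other Sp and KLF genes in grey; "(2)" marks the lower peak of a gene with 2 peaks, and the dashed line is the list median of 49. Sp1 stands highest at 128, and the intervals of all neighbours in the order overlap.

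Of the 10 DMSO peaks 1 met a treated peak, that of Sp1, against 2.9% of all DMSO peaks. Meeting a treated peak was most frequent among the DMSO peaks of highest fold. It held for 151 of the 4722 peaks with a fold of at least 9.77 (3.20%). It held for 109 of the 488 at or above the median of the set (22.3%), and for 50 of the 102 at or above the fold of Klf10 (49.02%). These classes are nested, each holding the next, and below the median of the set the share did not rise with fold. Sp3 and Klf10, whose folds fall in the last class, were among the 52 peaks of it with no treated peak. The nearest treated summit was 0.912 Mb from Sp3 and 0.914 Mb from Klf10. For Sp2, Klf4 and Klf9 it was 205, 178 and 490 kb away, and for Klf6, Klf13 and Sp4 it was 8.04, 8.58 and 13.2 Mb away. The treated list was called over another background, and neither list gives a signal where no peak was called. A missing treated peak is therefore not a measured loss of ends. The lowest −log10 q was 3.38 in the treated list, against 18.5 in the DMSO list, so the treated list reached down to weaker q-values.

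Of the 9 DMSO peaks at genes with a listed start, 8 had their summit upstream of the nearest start of the gene, by 35 to 829 bp, and those 8 peaks all spanned that start. The exception was the far end of Klf6. Each of the 8 peaks reached more than 1 kb to either side of its summit, so a start that near was bound to lie inside it. Starts were listed for the chromosomes of 6300 of the 6444 DMSO peaks and 487 of the 491 treated peaks. Of these DMSO peaks, 3590 had a summit within 1 kb of a listed start of any gene. Of the 3590, 57.9% lay upstream of the nearest such start, with the median summit 70 bp upstream. In the treated list it was 62.7% of 126. The rule that assigned peaks used no strand, but 8 summits are few. They were measured from starts of their own gene, unlike the shares over the lists. At Sp2 and Sp3 the summit lay inside the gene and was upstream of an inner start, not of the outermost one.

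Beyond the 1 kb limit, the nearest DMSO peak was upstream of Klf9, 5962 bp from the gene, with a fold of 15.4 and a width of 3884 bp, both above those of the peak at the start (13.9 and 3556 bp). A peak 6835 bp upstream of Sp1 had a fold of 9.53. Within the limit, the DMSO summits farthest beyond the gene were those of Klf4 at 829 bp and Sp1 at 589 bp.

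The promoter windows differed widely in GC boxes. RefSeq windows were matched for 9 of the 10 genes (not Klf10), 12 windows in all, with 3 for Sp2 and 2 for Sp3. GGGCGG, searched on both strands with overlapping matches counted, occurred in 9 of the 12, at 0 to 5 copies per window (median 2). The inner window of Sp3 had 5, and Sp1, Sp4 and Klf4 had 4 each, with 2 of the Klf4 matches sharing a base. Klf13 had 3, Klf2 and the outer window of Sp3 had 2 each, and Klf6 and the inner Sp2 window next to its peak had 1 each. Klf9 and the 2 other Sp2 windows had none. Of all 32851 windows of the same length 32.7% held a match. The share was 71.5% of the 5007 windows whose start lay within 1 kb of a DMSO summit and 25.8% of the 27844 others. A match is a string of letters and shows no binding.

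Single genes departed from that pattern in both directions. In the Sp1 window printed above, matches began at positions -210, -197, -81 and -62, counted in bases back from the start, and the window was modest in CG dinucleotides (11, with 59.6% G and C). Sp4 and the inner window of Sp3 had 37 CG dinucleotides each and 80.0% and 77.2% G and C. Klf9 had a DMSO summit 35 bp before its start with no GC box, 18 CG dinucleotides and 59.6% G and C. Klf2 had 2 GC boxes, 29 CG dinucleotides and 71.2% G and C but no peak in either list. The medians were 20 CG dinucleotides and 64.0% G and C for windows near a DMSO summit, and 4 and 50.4% for the others. The CACCC box, searched as CACCC on both strands and allowed to share bases with GC boxes, occurred in 7 of the 12 windows, against 52.01% of all windows and 59.2% of those near a DMSO summit.

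**Figure D4:**
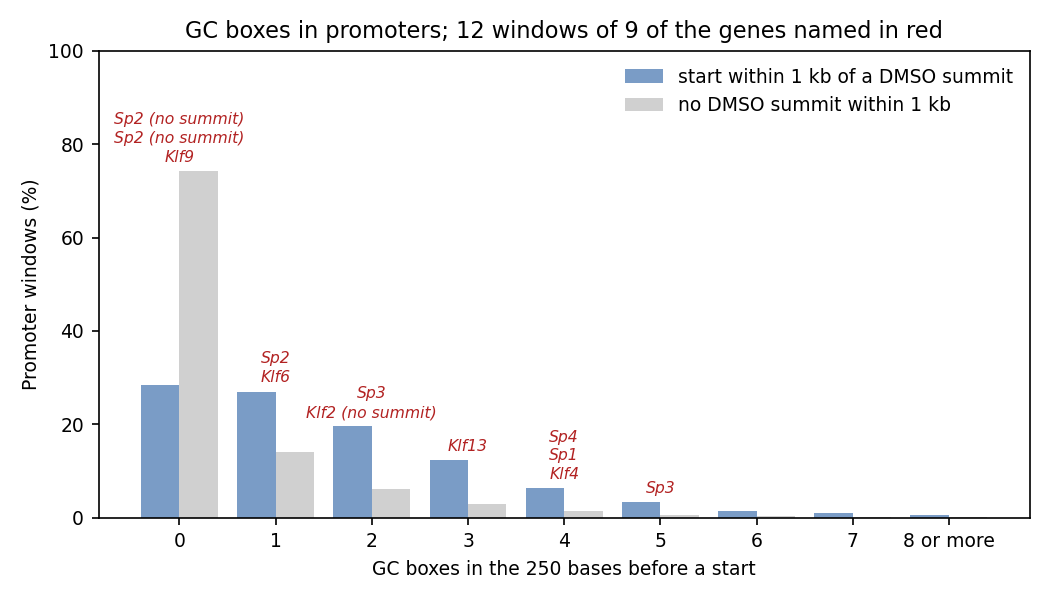
Share of promoter windows (%, vertical axis) by the number of GC boxes in the 250 bases before a start, for the 5007 windows with a DMSO summit within 1 kb in blue and the 27844 others in grey; names in red place the 12 windows of the genes. Klf9 has a summit and 0 boxes, and Klf2 has 2 boxes and no summit.

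Of the 16 other Sp and KLF genes in the table, all that were left of the family outside the 10, 4 held a DMSO summit and 0 held a treated summit. They were Klf16, a SIN3A-binding repressor (fold 21.9, 89 fragments), Klf3, a repressor that recruits CtBP (folds 19.98 and 14.4 at its start and 7793 bp downstream of it), Klf7, an activator of neuronal genes (12.9, 79 fragments over a background of 4.97 on the same scale), and Klf11, a TGF-β-induced repressor (9.31, 45 fragments). By fold, Klf16 was thus above all the genes described here apart from Sp1 and Sp3, and Klf3 above all apart from Sp1, Sp3 and Klf10. The counts did not separate them from the next genes. Klf16 had 89 fragments beside 88 at Klf10, and the start of Klf3 had 81 beside 76 at Klf4, each with overlapping 95% counting intervals. The start peak of Klf3 was shared with the protein-coding gene Gm38457 (summit 605 bp inside it), and that of Klf7 with the non-coding Gm35880 (83 bp inside it). The peak of Klf16, a gene with no listed start, was shared with the non-coding Gm26710 (summit 464 bp outside it). These peaks too cannot be given to a single gene. No summit lay at Sp5, Sp6, Sp7, Sp8, Sp9, Klf1, Klf5, Klf8, Klf12, Klf14, Klf15 or Klf17. By branch, DMSO summits were held by 4 of 4 glutamine-rich Sp genes, 0 of 5 other Sp genes, 3 of 6 activator-type KLF genes, 1 of 3 CtBP-binding KLF genes, 5 of 6 SIN3-binding KLF genes and 0 of the remaining 2. Over the whole family it was 13 of 26 genes, beside the 23.8% of all protein-coding genes. Of these 13 genes, 9 were among the 10 chosen with the lists known. Neither this share nor the counts by branch are therefore read as a result. The 16 genes outside the set were left over by that same choice. Their 4 with a DMSO summit are therefore not read against the share of all protein-coding genes either.

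Of 8 genes for partners of Sp and KLF proteins, 6 held a DMSO summit and 0 held a treated summit. The shares over all protein-coding genes were 23.8% and 1.16%. These 8 names were also picked with earlier results known, so nothing is read from the counts. Sin3a, which encodes the scaffold that KLF repressors bind, had a fold of 20.7 over 7129 bp, wider than any peak of the factors themselves. Ctbp1 and Ctbp2, which encode corepressors bound by Klf3, had 17.3 and 15.1, Hcfc1 had 11.7, the deacetylase gene Hdac1 had 10.9 and the acetyltransferase gene Crebbp had 10.5. The Ctbp2 summit also lay 266 bp inside the protein-coding gene Gm35364, and the Sin3a summit 127 bp inside the non-coding 2700012I20Rik, with an end of the non-coding Gm10658 in the same peak. The nearest DMSO summit lay 139553 bp from Hdac2 and 1425 bp from Ep300, outside the window.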

How the data were processed

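BrITL pull-downs and inputs of 6 samples were used as 2 deposited peak lists, 1 per condition, with no columns per sample. Per the submitters' processing notes the build was mm10 and the tools included STAR 2.5.2a and MACS2 2.1.0; settings and the rule of entry into the lists are not given in the sources used here. Deposited per peak were the authors' fold enrichment (a ratio), −log10 p and −log10 q values, and a score that is the whole part of 10 times −log10 p in 100% of peaks. Genes and starts came from RefSeq tables of GRCm38.p6.

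The fold, read as (pileup + 1) / (background + 1), and the Poisson p-value of each peak were solved together. They were converted to whole fragments, in steps of 0.805 (DMSO) and 0.439 (treated), and 100% of peaks were solved. The procedure was tested on simulated data made with the same formulas and steps. That test checks the inversion, and cannot check the formulas or the steps. Depth per sample is unknown, and intervals cover counting error only. A peak match needed an overlap of 1 bp. The genes and lists were chosen with earlier results of these data known; every gene of the set, of the family and of the partner list was named. No test was run, and alternatives varied the gene window, the peak thresholds and the overlap. Calculations used SciPy 1.17.1, pandas 2.3.3 and NumPy 2.4.6 under Python 3.11.15.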

Additional observations from a re-analysis of the deposited data

How the results depend on the processing

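With the gene body alone as the window, 3 of the 10 genes held a DMSO summit in place of 9, and 0 held a treated summit in place of 1. Of the other Sp and KLF genes, 2 held a DMSO summit in place of 4. Most summits lay just beyond a gene end. The share of all protein-coding genes was not counted in this narrower window, so the drop is not read as particular to these genes. The other 21 alternatives moved no count or median by more than 1.5 times: windows of 5 or 10 kb, any base of a peak in place of its summit, stricter lists by fold or −log10 q, other overlap criteria, and, for the median fold, other windows or the best peak of each gene. No paired analysis was possible because each list pools its pull-downs, and for the same reason no replicate could be left out. Depth per sample is unknown. The weakest summit in each list had 35 pull-down fragments, so weaker sites were not seen.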
